A study of Mus musculus with 4 samples.

Results

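The collagen genes are the 44 genes, of 57010 in the deposited gene table, whose symbol is Col, digits, a and digits with nothing further. They were followed through 16350 single cells of the mouse lung, by cell type, by collagen class and by pool. Of the 44 genes, 38 had at least 50 UMIs (unique molecular identifiers, each counting 1 RNA molecule once) over all cells. The other 6 (Col2a1, Col6a4, Col9a1, Col9a2, Col19a1 and Col22a1) fell below that number and are named here only. Together the 44 genes gave 362111 UMIs, 0.217% of all UMIs in these cells.

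The cells came from 2 pools of 6 mice each, all 8 weeks old and C57Bl6/J. The Cre_Pos pool carried Shh.Cre, a Cre driven by the Sonic hedgehog gene that is active in lung epithelium, together with a p73 allele floxed at exons 7 to 9. The Cre_Neg pool held littermates without Cre that were homozygous for the same floxed allele. After digestion, CD45+ cells were depleted, Epcam+ cells enriched and live cells sorted, and SPLiT-seq (combinatorial barcoding of fixed cells) gave 7695 Cre_Neg and 8655 Cre_Pos cells in 4 sublibraries that each mixed both pools. The 4 sublibraries are aliquots of the same cells, not replicate animals, so with 1 pool per genotype no test between genotypes was possible. Every interval below is a 95% interval that covers counting error only, and the pools also occupied different barcoding wells, so genotype, animals and wells cannot be told apart.

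Each sublibrary held 1472 to 2388 cells per pool, with median depths of 8713 UMIs per cell in Cre_Neg and 8218 in Cre_Pos. The design text gives 20000 cells; 16579 of 647296 barcodes had at least 500 genes. Among cells, 285 of 16290 barcode combinations occurred in more than 1 sublibrary. Clusters were named from marker genes that excluded all collagens, so each name below means cells like that type; 6 clusters stayed unnamed. Trp73, the floxed gene, stood at 85.8 CPM (UMIs per 1000000 UMIs of the cells summed) in Cre_Neg and 11.8 in Cre_Pos over all cells. Within ciliated cells it stood at 334 in Cre_Neg and 315 in Cre_Pos. The counts are per gene, so transcripts outside the floxed exons also count. Whether the floxed exons were lost in the Cre_Pos ciliated cells was not tested. In the Cre_Pos pool 117 ciliated cells remained, of which 1 had Xist UMIs without Y-linked UMIs and 100 the reverse. In Cre_Neg the same counts were 881 and 177 of 1200 ciliated cells.

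Collagens are secreted or membrane proteins whose chains wind into triple helices. Fibrillar collagens form the tension-bearing fibrils around airways, vessels and alveolar walls, type IV chains form the sheet of every basement membrane, type VI forms beaded filaments between the fibrils and the cells, and the FACIT and multiplexin collagens decorate fibrils and basement membranes. In the alveolus, type IV chains made by both the epithelium and the capillary endothelium form the thin shared membrane across which gas is exchanged.

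Collagen RNA was unevenly spread over the cell types. In each type it is given as the share of all UMIs of that type. Adventitial fibroblasts, the fibroblasts of the cuffs around vessels and airways, gave the highest share, 2.04% of UMIs. Alveolar fibroblasts followed at 1.14%, the flat gas-exchanging AT1 cells at 1.08%, mesothelium (the lung surface lining) at 0.762% and pericytes (the mural cells of capillaries) at 0.62%. Neuroendocrine cells gave 0.301%, aerocytes (the large capillary cells of gas exchange) 0.234%, general capillary cells 0.214%, the surfactant-making AT2 cells 0.202% and ciliated cells 0.0529%. AT1 cells were few, 22 in Cre_Neg and 29 in Cre_Pos, and adventitial fibroblasts were 39 and 25.

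**Figure D1:**
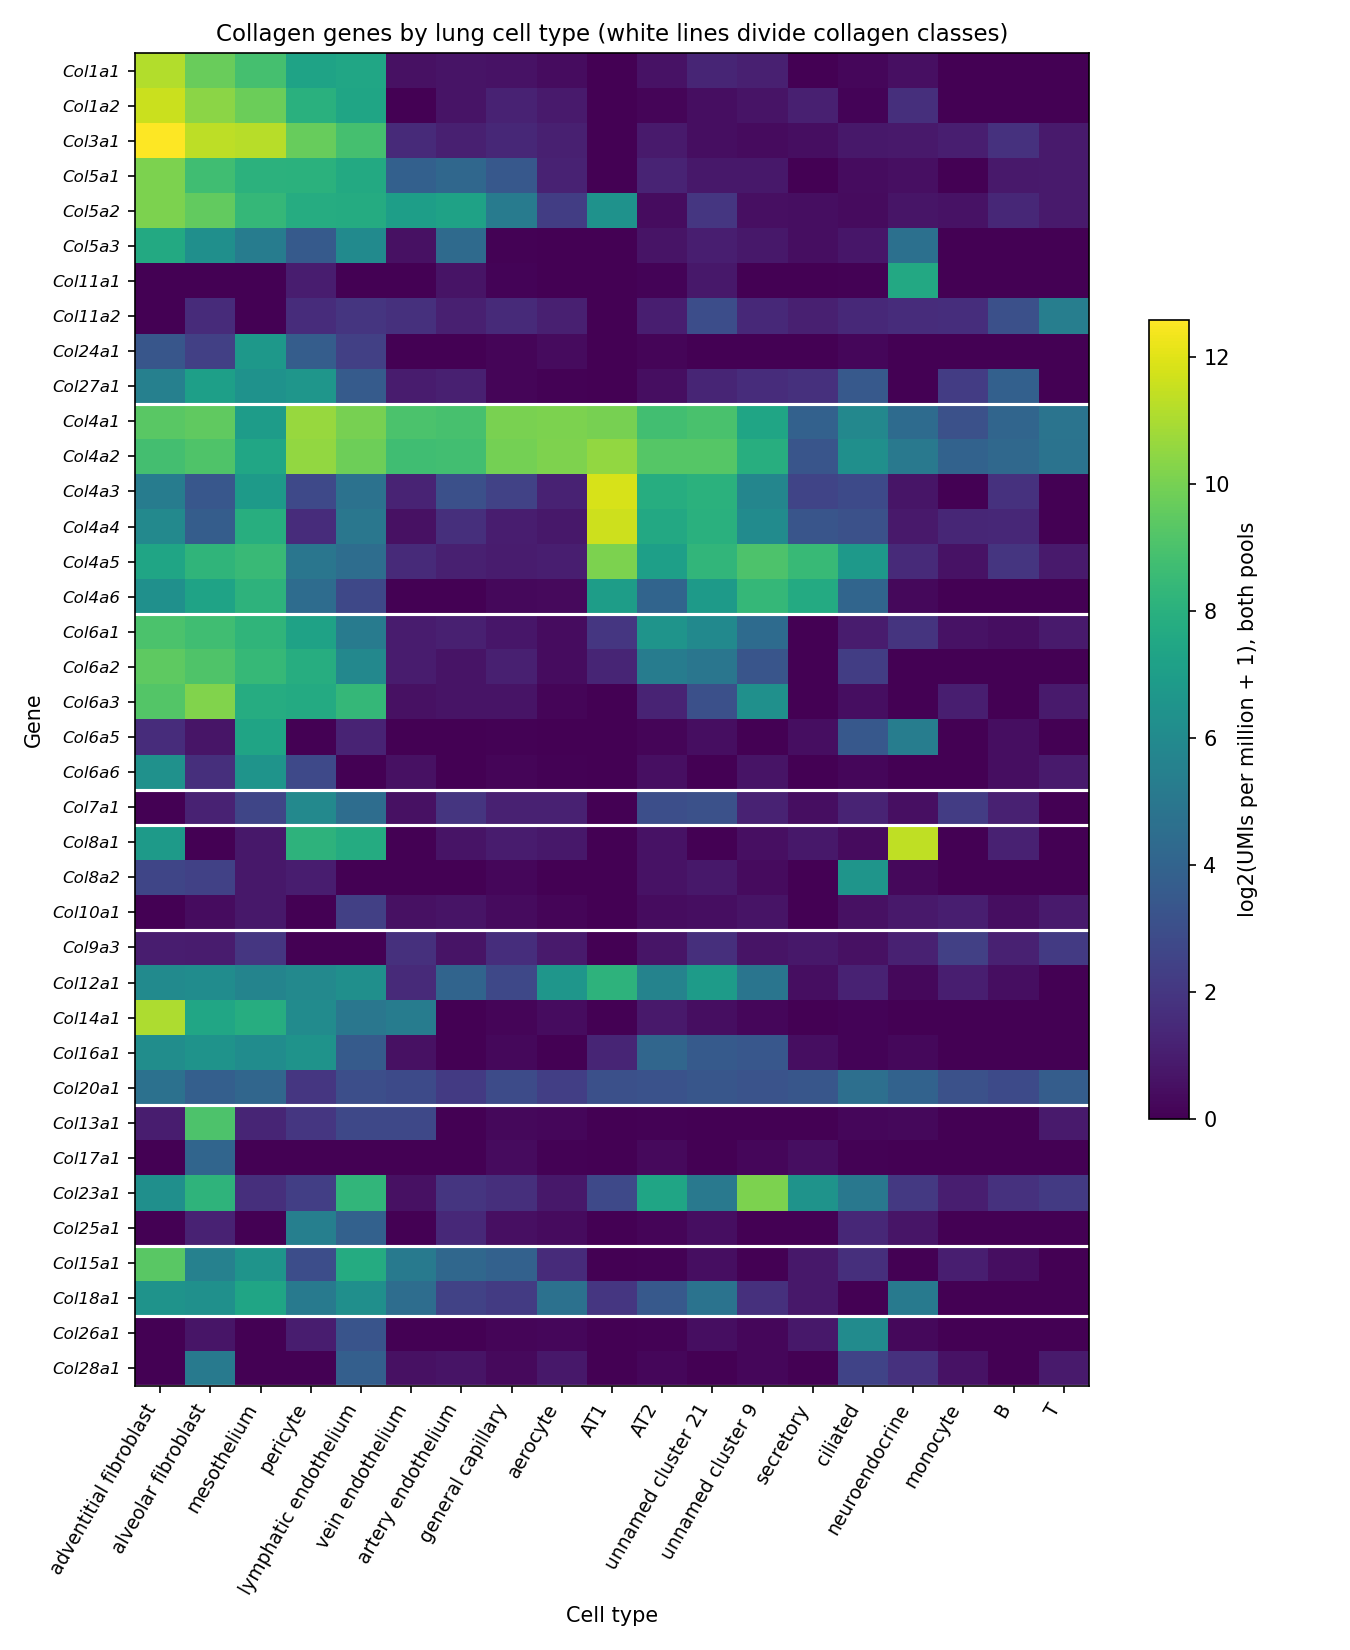
Level of each collagen gene with at least 50 UMIs (rows, grouped by collagen class) in each cell type (columns), as log2(CPM + 1) over both pools. Fibrillar genes are high in the fibroblast columns, Col4a3 and Col4a4 in AT1, Col8a1 and Col11a1 in neuroendocrine cells, and Col8a2 and Col26a1 in ciliated cells.

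By share of the UMIs captured, a few collagens belonged almost wholly to 1 type, and most did not. In 5 of the 38 genes at least 90% of UMIs lay in 1 type: Col11a1 (98.6%) and Col8a1 (95.2%) in neuroendocrine cells, Col26a1 (97.5%) and Col8a2 (96.7%) in ciliated cells, and Col13a1 (97.5%) in alveolar fibroblasts. In 16 genes the type with the highest level held under 20% of the UMIs. Such shares also depend on how many cells of each type were captured, so a low share does not mean an even level. AT1 cells held 17.3% of Col4a3 UMIs at 3574 CPM against 224 in AT2 cells, with 51 AT1 and 3375 AT2 cells. The same shares over all genes were not counted. By level, 11 genes were highest in adventitial fibroblasts, 6 in alveolar fibroblasts, 4 each in mesothelium, pericytes and AT1 cells, and 2 each in ciliated cells, neuroendocrine cells and the unnamed cluster 9. When collagens were allowed among the genes used for clustering, where the adventitial cells were not a group of their own, 24 of 38 genes kept their highest type.

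**Figure D2:**
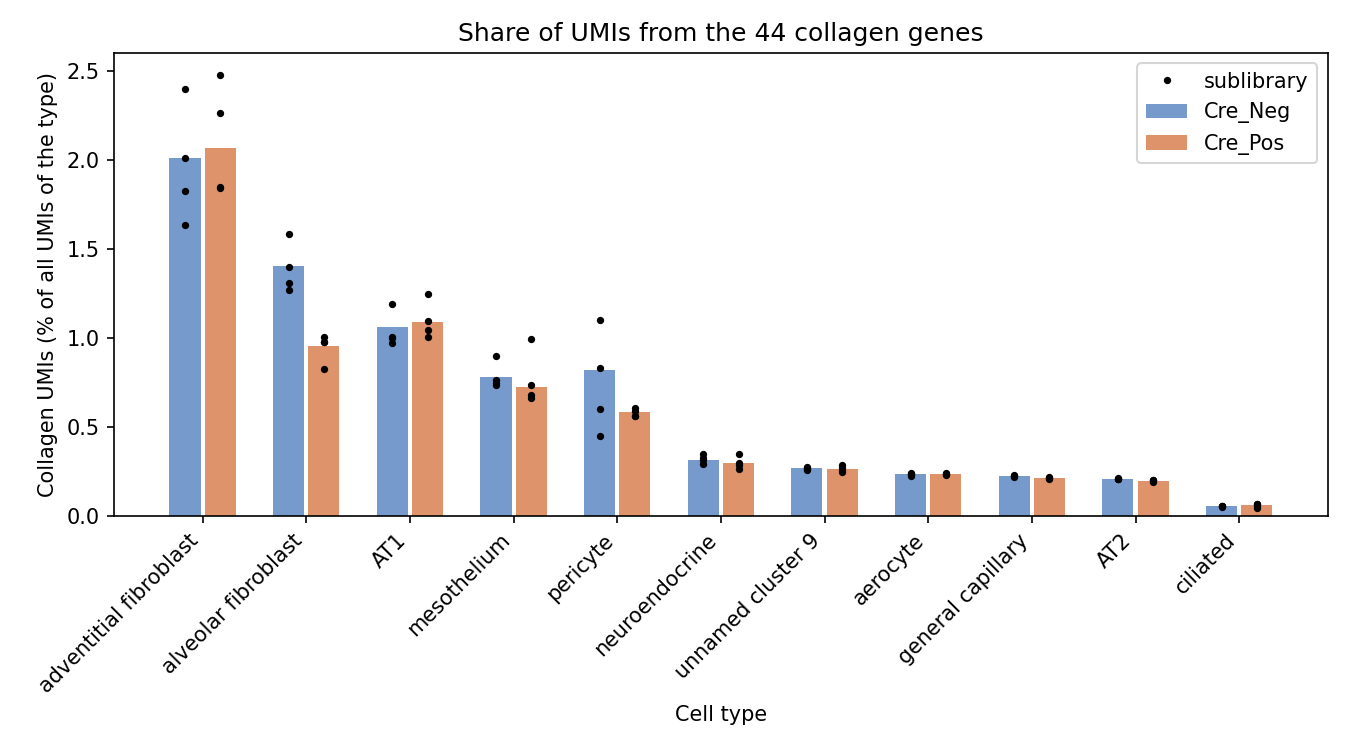
Share of all UMIs that came from the 44 collagen genes (vertical axis, %) in each cell type and pool, with the sublibraries beside the pooled value. Adventitial fibroblasts sit highest, and alveolar fibroblasts differ most between pools, 1.40% in Cre_Neg against 0.952% in Cre_Pos.

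Some of the genes are printed with their upstream sequence, because pairs of them share a start region or divide between cell types. The stretches come from RefSeq promoter windows of GRCm38.p6, which held 35 of the 44 genes, clipped to bases in no annotated exon, and read 5′ to 3′ on each gene's strand towards the start. The Col4a5 stretch ends 34 bases before the start of its window, and the Col8a2 stretch 1 base before. Capitals mark the motif TATAAA, the motif CCAAT and the motif GGGCGG on either strand (so CCGCCC is the last of them read on the other strand). These are letter matches and not binding sites.

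Col4a4 (chr1:82586850-82586920, minus strand, the whole stretch between the Col4a4 and Col4a3 starts): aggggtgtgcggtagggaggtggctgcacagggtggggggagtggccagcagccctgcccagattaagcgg
Col4a5 (chrX:141475169-141475384, plus strand): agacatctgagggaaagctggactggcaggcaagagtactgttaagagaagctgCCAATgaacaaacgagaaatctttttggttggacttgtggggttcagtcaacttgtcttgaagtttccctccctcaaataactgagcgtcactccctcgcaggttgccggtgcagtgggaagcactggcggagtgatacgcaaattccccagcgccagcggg
Col4a6 (chrX:141474077-141474326, minus strand): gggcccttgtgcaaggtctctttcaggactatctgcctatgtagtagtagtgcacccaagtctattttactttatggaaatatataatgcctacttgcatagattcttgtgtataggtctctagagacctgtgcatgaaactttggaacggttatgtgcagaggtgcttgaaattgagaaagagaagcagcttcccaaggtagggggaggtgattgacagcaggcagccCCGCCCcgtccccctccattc
Col8a1 (chr16:57754738-57754987, minus strand): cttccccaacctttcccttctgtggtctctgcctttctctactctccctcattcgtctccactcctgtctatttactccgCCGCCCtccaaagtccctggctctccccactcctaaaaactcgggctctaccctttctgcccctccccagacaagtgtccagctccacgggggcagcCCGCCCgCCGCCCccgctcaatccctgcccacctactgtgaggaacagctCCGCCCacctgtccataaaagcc
Col8a2 (chr4:126286544-126286792, plus strand): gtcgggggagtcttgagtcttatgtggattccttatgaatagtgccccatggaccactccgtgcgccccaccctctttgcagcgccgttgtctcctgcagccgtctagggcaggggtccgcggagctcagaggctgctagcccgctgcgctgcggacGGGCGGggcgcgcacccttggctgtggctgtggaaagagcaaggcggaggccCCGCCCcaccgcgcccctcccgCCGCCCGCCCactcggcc
Col3a1 (chr1:45311288-45311537, plus strand): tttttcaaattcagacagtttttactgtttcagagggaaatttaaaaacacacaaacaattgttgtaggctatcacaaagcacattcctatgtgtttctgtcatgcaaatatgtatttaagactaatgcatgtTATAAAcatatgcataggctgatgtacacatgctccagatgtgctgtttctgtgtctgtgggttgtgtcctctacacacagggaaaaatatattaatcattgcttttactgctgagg

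The short Col4a4 to Col4a3 stretch held none of the 3 motifs. Col4a5 held CCAAT starting 196 bases upstream of its start, and Col4a6 held GGGCGG 21 bases upstream. Both type VIII genes, Col8a1 and Col8a2, held 4 matches to GGGCGG each, and the last 2 in Col8a2 overlap. Col3a1 held TATAAA 117 bases upstream and its stretch was 35.2% G and C, against 69.9% in Col8a2. Over windows of the full length, GGGCGG was in 22 of 38 windows of collagen genes (57.9%) and in 32.7% of all 32851 windows. CCAAT was in 34.2% and 33.8%, and TATAAA in 13.2% and 12.4%.

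The fibrillar collagens were highest in adventitial fibroblasts. Col3a1, the type III chain of pliable fibrils, stood at 6126 CPM there (interval 5971 to 6284), at 2532 in alveolar fibroblasts, 2400 in mesothelium and 799 in pericytes, and at 1.6 in general capillary cells. Its level in barcodes of at most 50 UMIs, taken as free RNA, was 93.1 in Cre_Neg and 78.2 in Cre_Pos. Such a level is a share of the free RNA itself, and how much free RNA adds to a cell was not measured. Col3a1 in general capillary cells, at 1.6, lay far below it. A value under the free RNA level, here and below, is therefore not thereby background. Across the Cre_Neg sublibraries adventitial fibroblasts gave 7916, 6367, 5560 and 3855, and across the Cre_Pos sublibraries 5893, 5243, 5866 and 7272, so the pools overlapped (log2 ratio -0.03, interval -0.11 to 0.04). Col1a2 and Col1a1, the chains of type I collagen, followed the same order of types. Col1a2 in adventitial fibroblasts was 3139, 3193, 2997 and 1682 in the Cre_Neg sublibraries and 3048, 2856, 2638 and 4284 in the Cre_Pos sublibraries. Col1a1 there was 2230, 2325, 1933 and 1219 against 2058, 2304, 1817 and 4193. For both genes the fourth sublibrary was the lowest of Cre_Neg and the highest of Cre_Pos, and the other 3 overlapped.

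The other fibrillar genes split between the same fibroblasts and unrelated cells. Col5a1, Col5a2 and Col5a3, the type V chains that start fibril assembly, were highest in adventitial fibroblasts (1113, 1103 and 198 CPM). Outside the mesenchyme, Col5a2 was also at 151 in artery endothelium. Col27a1 was highest in alveolar fibroblasts at 136 and Col24a1 in mesothelium at 103, although 64.1% of the mesothelial Col24a1 UMIs came from 1 cell. Col11a1, best known from cartilage, was at 191 in neuroendocrine cells: the Cre_Neg sublibraries gave 269, 133, 221 and 308 and the Cre_Pos sublibraries 158, 182, 151 and 209, which overlap. Col11a2 was low, at 42.4 in the unnamed cluster 29 and 40.8 in T cells.

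The 6 type IV chains separated by cell. Col4a1 and Col4a2, the chains of the ubiquitous network, were high in pericytes (1569 and 1506 CPM), aerocytes (1080 and 1116), lymphatic endothelium (1031 and 896) and AT1 cells (1014 and 1475), and free RNA held 457 to 603. Col4a3 and Col4a4, which with Col4a5 form the network best known from the kidney glomerulus and also built in the alveolus, peaked in AT1 cells. Col4a3 in AT1 cells was 3256, 3249, 3727 and 3267 in the Cre_Neg sublibraries and 3331, 3860, 4526 and 3344 in the Cre_Pos sublibraries. Col4a4 gave 2759, 2361, 3929 and 2948 against 2868, 2693, 3477 and 4060. Both pairs of ranges overlap. In AT2 cells, the other epithelial cell of the alveolus, Col4a3 was at 224 and Col4a4 at 195. In general capillary cells, which stood at 1042 for Col4a1, Col4a3 was at 4.57 and Col4a4 at 1.03, with free RNA at 68.6 to 89.7. Col4a5 was highest in AT1 cells at 1079, and Col4a6 in cluster 9 at 336, mesothelium at 276 and secretory cells at 207.

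**Figure D3:**
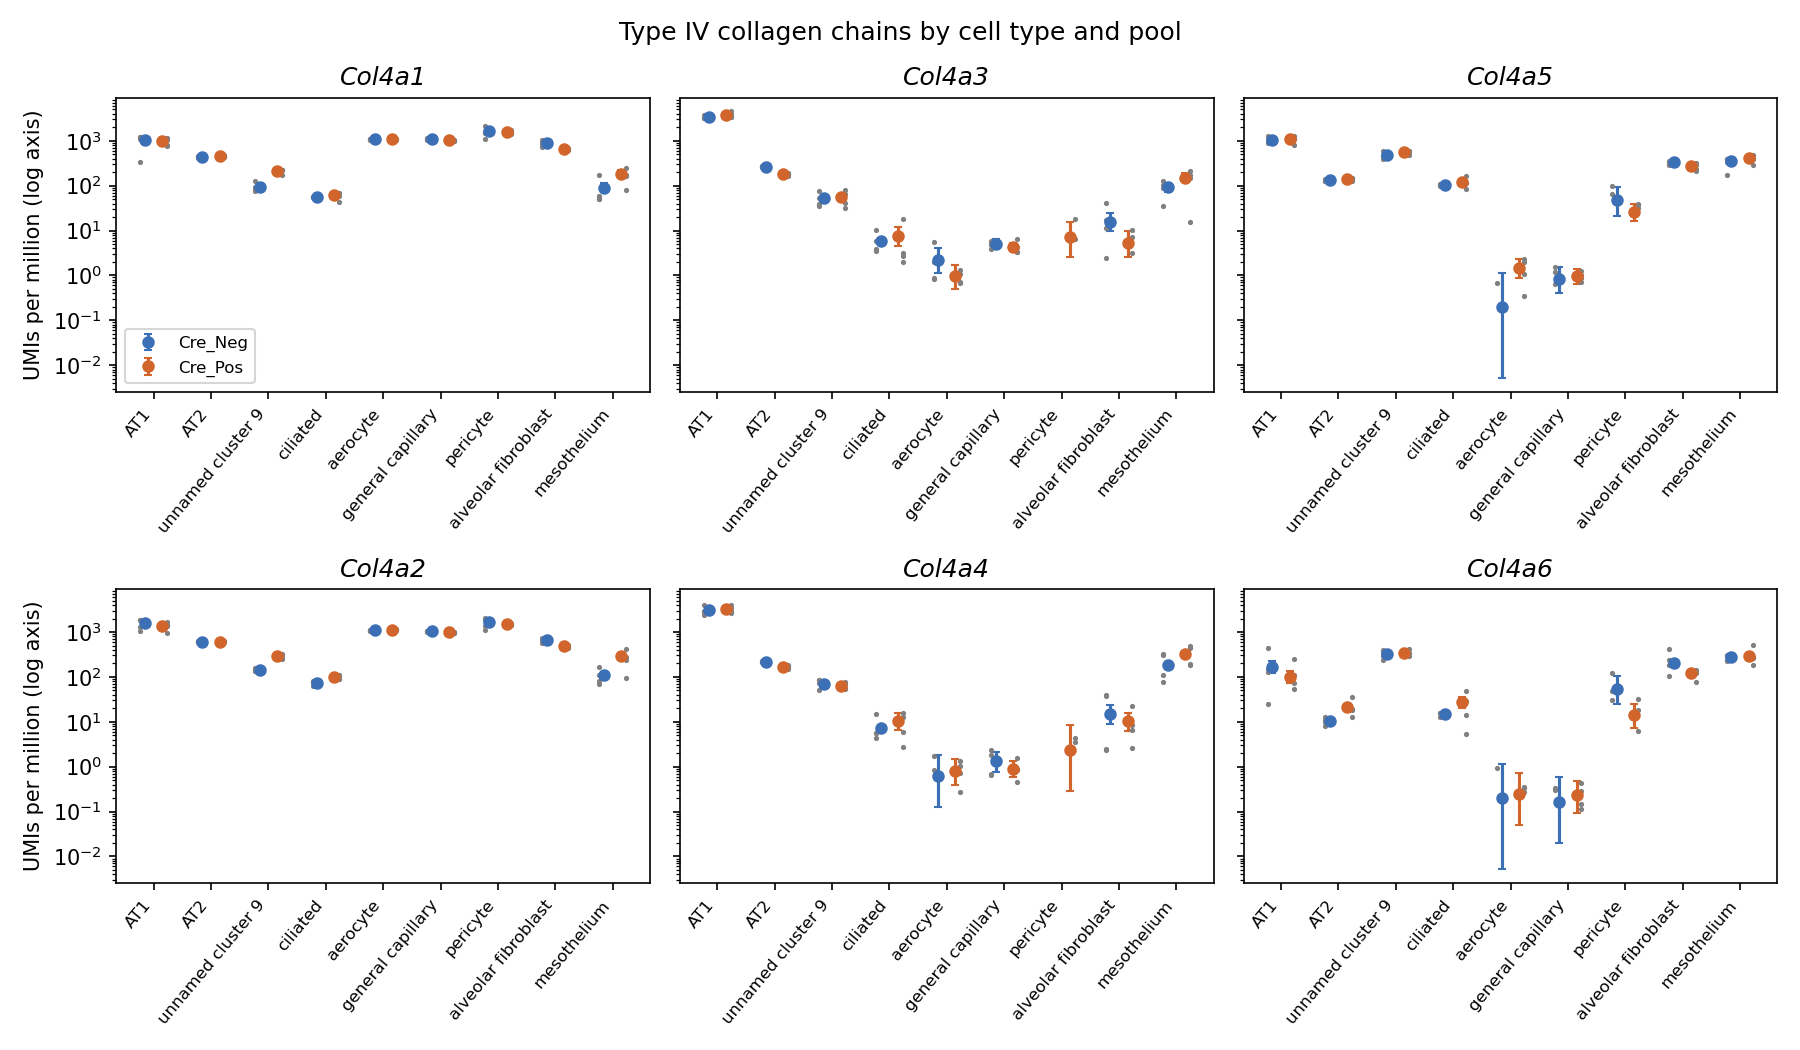
The 6 type IV chains, 1 panel each, in CPM on a log axis by cell type and pool; large points are pools with their counting intervals, small grey points are sublibraries, and values of 0 are not drawn. Col4a1 and Col4a2 are high in endothelium, pericytes and AT1 cells, whereas Col4a3 and Col4a4 peak in AT1 cells above 3000.

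The type IV genes lie in head-to-head pairs, and each pair moved together across types without keeping a fixed ratio. In GENCODE M21 the starts of Col4a1 and Col4a2 on chromosome 8 lie 21 bases apart, those of Col4a3 and Col4a4 on chromosome 1 lie 72 apart, and those of Col4a5 and Col4a6 on chromosome X lie 1309 apart. As a description over the 26 types, which share depth and free RNA, Pearson's r of log2(CPM + 1) was 0.96 in all 3 pairs. The ratios of UMIs within a pair are not corrected for transcript length, so they are compared across types only. Col4a1 over Col4a2 ran from 0.62 (interval 0.48 to 0.80) in neuroendocrine cells and 0.69 in AT1 cells to 1.34 in alveolar fibroblasts and 1.49 (1.32 to 1.69) in adventitial fibroblasts. General capillary cells stood at 1.04 (1.03 to 1.06) and aerocytes at 0.97 (0.95 to 0.99). Col4a3 over Col4a4 was 1.14 in AT1 and 1.15 in AT2 cells, intervals 1.08 to 1.21 and 1.12 to 1.18, and 0.48 (0.39 to 0.58) in mesothelium. Col4a5 over Col4a6 was widest, from 1.35 in mesothelium and 1.58 in cluster 9 to 8.52 in AT1 and 8.74 (8.08 to 9.47) in AT2 cells. Col4a1 and Col4a2 overlap at their starts on opposite strands, so reads there may be shared.

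Type VI collagen was a product of the mesenchyme with an epithelial exception. Col6a3, the long chain, was highest in alveolar fibroblasts at 1168 CPM, against 588 in adventitial fibroblasts. Col6a1 and Col6a2 were highest in adventitial fibroblasts at 514 and 696. Col6a2 there was 922, 540, 694 and 782 in the Cre_Neg sublibraries and 810, 490, 508 and 830 in Cre_Pos, and Col6a1 was 598, 463, 439 and 543 against 652, 511, 382 and 638. The pools overlapped for both. AT2 cells held Col6a1 at 90.6 and Col6a2 at 38.5, with free RNA at 30.8 to 33.0 and 21 to 24.1, but Col6a3 at 1.35. The ratio of Col6a2 to Col6a1 was 0.42 (0.40 to 0.45) in AT2 cells, 0.45 in cluster 9 and 1.13 to 1.53 in the 4 mesenchymal and mesothelial types. Col6a5 and Col6a6, alternative chains, were highest in mesothelium at 163 and 91.0, and Col6a5 was also at 39.5 in neuroendocrine cells.

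The 2 chains of type VIII collagen, a short chain network former of vessel and corneal basement membranes, lay in different epithelial cells. Col8a1 in neuroendocrine cells stood at 2622 CPM (2576 to 2668), with 2682, 2569, 3058 and 2668 in the Cre_Neg sublibraries and 3072, 2602, 2249 and 2469 in Cre_Pos. It was 279 in pericytes and under 1 in aerocytes and general capillary cells. Col8a2 in ciliated cells was 101, 88.3, 90.9 and 89.99 in Cre_Neg and 106, 87.3, 141 and 75.5 in Cre_Pos. The pools overlapped in both genes (log2 ratios -0.07, interval -0.12 to -0.02, and 0.22, interval 0.02 to 0.42). Col26a1, a little-studied secreted collagen, was also a ciliated gene, at 64.5, 64.4, 73.3 and 69.3 in Cre_Neg and 61.1, 63.5, 51.4 and 53.9 in Cre_Pos. Each Cre_Pos value lay below each Cre_Neg value, and the log2 ratio was -0.24 (-0.51 to 0.03). The ciliated cells of the 2 pools differed in sex transcripts, as given above. Among those with Y-linked and no Xist UMIs (177 and 100 cells), Col26a1 went from 51.9 to 57.8 (0.15, -0.21 to 0.51). Col8a2 in the same cells went from 62.2 to 107 (0.78, 0.50 to 1.07), higher in all 4 sublibraries. The part of sex in these ratios was not tested. Col10a1, the growth plate chain, had 62 UMIs in all and overlaps Nt5dc1 on the other strand.

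Among the collagens that decorate fibrils or span membranes, Col13a1 (97.5% of its UMIs) and Col14a1 (63.8%) lay mainly in 1 type. Col15a1 (32.8% in its highest type) and Col18a1 (11.4%) did not, by shares that also depend on the cells captured per type. Col14a1, which sits on the surface of fibrils, was at 2124 CPM in adventitial and 171 in alveolar fibroblasts. The adventitial sublibraries gave 1987, 2479, 1954 and 1974 in Cre_Neg and 3126, 1376, 2149 and 2198 in Cre_Pos, which overlap. Col13a1, a transmembrane collagen, was at 529 in alveolar fibroblasts, with 5.54 in vein endothelium as the next type with at least 10 UMIs. Its alveolar fibroblast values were 508, 505, 490 and 436 in Cre_Neg and 666, 537, 535 and 526 in Cre_Pos, so every Cre_Pos value was higher, by 0.20 on the log2 scale overall (0.06 to 0.35). Col15a1, a multiplexin, was at 651 in adventitial fibroblasts: 710, 511, 318 and 1099 in the Cre_Neg sublibraries and 1102, 709, 664 and 517 in Cre_Pos, which overlap. Col18a1, the basement membrane multiplexin that gives rise to endostatin, was highest in mesothelium at 168 but overlaps Slc19a1 on the other strand.

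Col12a1 and Col23a1 marked epithelium as well as mesenchyme. Col12a1, another fibril-associated chain, was highest in AT1 cells at 280 CPM, against 68.1 in alveolar fibroblasts and 26.5 to 30.9 in free RNA. Its AT1 values were 149, 230, 154 and 246 in the Cre_Neg sublibraries and 283, 245, 383 and 457 in the Cre_Pos sublibraries, overlapping at 1 value each, with a log2 ratio of 0.76 (0.29 to 1.25). Between the capillary types it was 96.9 in aerocytes and 5.7 in general capillary cells. Aerocyte values were 111, 114, 105 and 89.0 in Cre_Neg and 93.9, 87.4, 105 and 88.3 in Cre_Pos. Col23a1, a transmembrane collagen, was at 1085 in cluster 9, which was led by the secretory markers Scgb1a1, Cyp2f2 and Cbr2 and also carried AT2 markers. It was 309 in lymphatic endothelium, 289 in alveolar fibroblasts and 165 in AT2 cells.

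The remaining genes were low. Col16a1 was at 87.3 CPM in alveolar fibroblasts and 86.4 in pericytes, values that do not differ beyond counting error. In pericytes Col7a1, the anchoring fibril collagen, was at 60.6 and Col25a1 at 42.7. Their sublibrary values in the 81 Cre_Pos pericytes were 38.5, 61.6, 25.5 and 92.5 for Col7a1 and 16.5, 47.1, 31.8 and 83.7 for Col25a1. The 20 Cre_Neg pericytes gave 12 and 3 UMIs of them. Col28a1 and Col17a1 were highest in alveolar fibroblasts at 35.2 and 16.0, and Col20a1 in adventitial fibroblasts at 24.7, on 24 UMIs, beside 23.4 in ciliated cells. Without the first or the third sublibrary, ciliated cells were the highest type of Col20a1. Col9a3, which overlaps Tcfl5, was highest in neutrophils at 5.11 and at 2.08 in general capillary cells. Neutrophils held only 0.493% of its 203 UMIs. Its highest type was monocytes without the third sublibrary and lymphatic endothelium at Leiden resolution 2.

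The second comparison set the pools against each other within each type, which asks how collagen RNA differed in lungs where Cre could act on the floxed p73 allele in Shh-lineage epithelium. A gene counts as past 2-fold with at least 50 UMIs over both pools of a type and a log2 ratio of Cre_Pos over Cre_Neg of at least 1 in size. Of 207 combinations of a collagen and a type with enough UMIs, 37 were past 2-fold, and 19 of the 37 had the same sign in all 4 sublibraries. By the same 2-fold rule, the share of all genes ran from 0.919% in AT2 cells to 16.4% in the unnamed cluster 25. It is given beside the count of each type below. The share of all genes with the same sign in all 4 sublibraries was not counted. Most of the 37 lay in types with under 100 cells in a pool. Whether the sublibrary values of the pools overlap is given below as a description only. The sublibraries are aliquots of the same cells, and the share of all genes without overlap was not counted.

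In alveolar fibroblasts (99 Cre_Neg and 147 Cre_Pos cells) collagen RNA was lower in Cre_Pos. It made up 1.40% of Cre_Neg UMIs (interval 1.38 to 1.43) but 0.952% of Cre_Pos UMIs (0.938 to 0.966). On the log2 scale the difference was -0.56, and -0.76, -0.66, -0.42 and -0.37 by sublibrary. The fibrillar class was at 0.81% and 0.472%, the FACIT class at 0.0481% and 0.0244%, type IV at 0.209% and 0.154% and type VI at 0.25% and 0.192%. The transmembrane class ran the other way, 0.0669% in Cre_Neg and 0.0951% in Cre_Pos. Of 23 genes with at least 50 UMIs, 19 were lower in Cre_Pos with an interval below 0, 13 of them in all 4 sublibraries. The share of all genes that meet these rules was not counted, and intervals of counting error alone are narrow for genes with many UMIs. The median log2 ratio of the 23 was -0.51, beside 0.02 over the 6914 genes measured in these cells.

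Col3a1 in alveolar fibroblasts was 3398, 4139, 2807 and 2926 CPM in the Cre_Neg sublibraries and 1363, 1995, 2331 and 2092 in Cre_Pos, with no overlap (log2 ratio -0.78, -0.84 to -0.72). Col1a2 was 1748, 1939, 1683 and 2117 against 770, 1053, 1109 and 1060, and its log2 ratio was -0.89 (-0.98 to -0.81). Col1a1 was 1005, 1482, 875 and 924 against 486, 708, 635 and 649, and its log2 ratio was -0.82 (-0.94 to -0.71). Neither type I chain overlapped between pools. Col5a2 was likewise lower, 977, 1082, 1029 and 742 against 616, 688, 593 and 517, and Col6a3 was 1245, 1427, 1439 and 1126 against 877, 1096, 1057 and 1105.

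Past 2-fold in alveolar fibroblasts were 4 lower genes and 1 higher gene. In the same cells 5.37% of all measured genes were past 2-fold, 1.68% lower and 3.69% higher. Col15a1 was 85.7, 95, 64.6 and 70.8 CPM in Cre_Neg and 2.61, 6.76, 9.67 and 43.5 in Cre_Pos (log2 ratio -1.94, -2.52 to -1.39). Col14a1 was 263, 250, 249 and 332 against 125, 90.2, 51.6 and 124 (log2 ratio -1.37, -1.63 to -1.11). Neither gene overlapped between pools, and both were highest in adventitial fibroblasts. Col5a3 (-1.02) and Col28a1 (-1.01) lay at the threshold: Col5a3 was 80.0, 169, 87.0 and 55.9 against 18.3, 74.4, 61.3 and 54.8, and Col28a1 was 103, 25.5, 62.1 and 37.3 against 41.8, 24.8, 29 and 14, and both overlap. Col23a1 was the higher gene, 171, 174, 189 and 127 against 426, 419, 387 and 310, with no overlap (log2 ratio 1.15, 0.93 to 1.38).

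**Figure D4:**
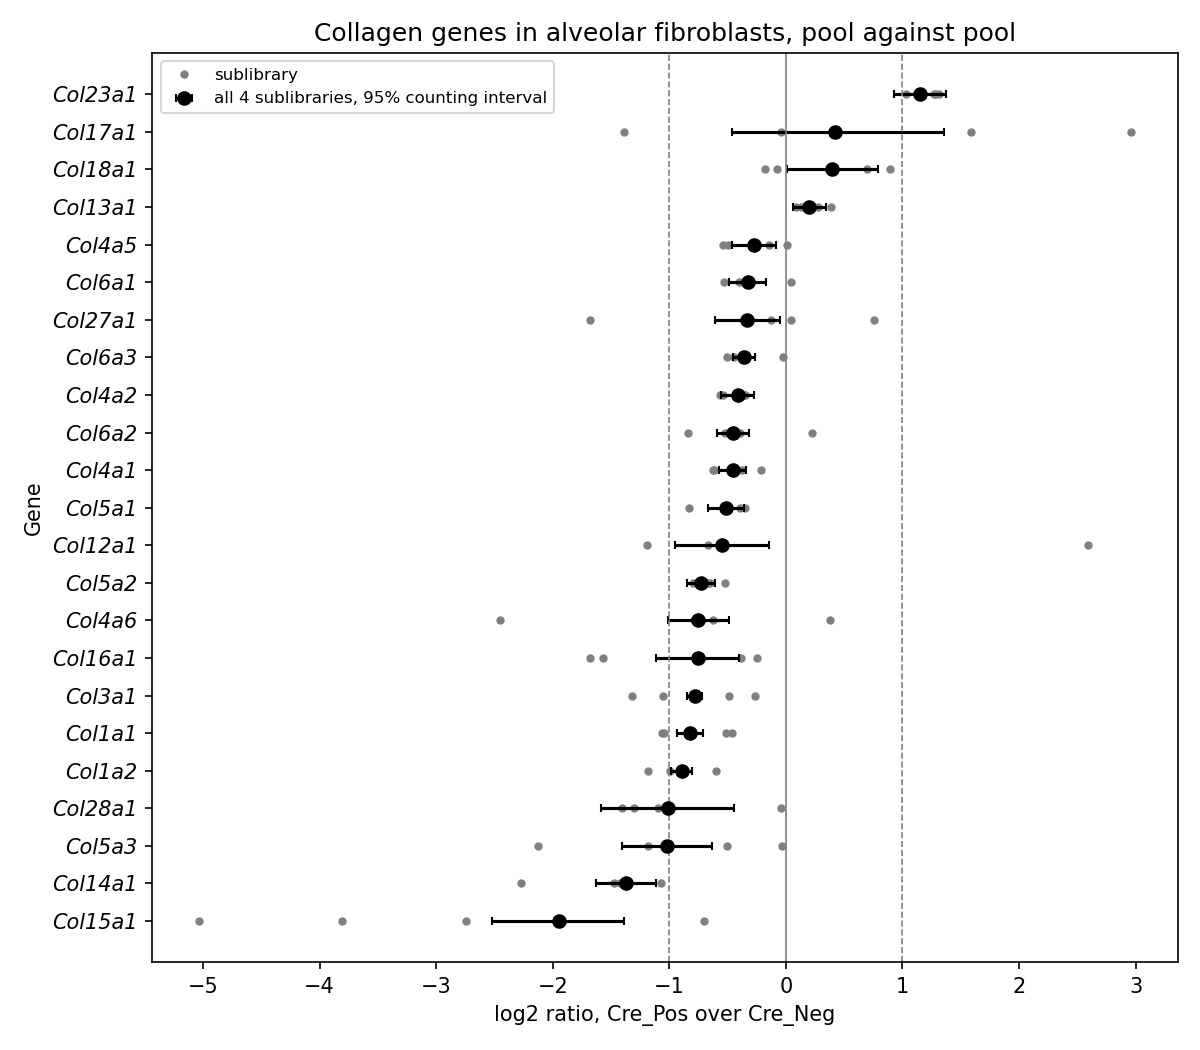
Log2 ratio of Cre_Pos over Cre_Neg (horizontal axis) for the 23 collagen genes with at least 50 UMIs in alveolar fibroblasts (vertical axis), with 95% counting intervals and the 4 sublibraries as small points. From Col15a1 at -1.94 most genes lie left of 0; Col13a1, Col18a1 and Col23a1 lie right of it with their intervals.

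Other markers moved in these fibroblasts beside the collagens. The 10 pan-endothelium markers summed to 230 CPM in Cre_Neg (sublibraries 123 to 634) and 1665 in Cre_Pos (638 to 2503), higher for 10 of 10 genes and with none at 0. The 12 myofibroblast markers summed to 339 and 173, the 13 adventitial markers to 3736 and 3474, and the 13 alveolar fibroblast markers to 12928 and 15615. Without cells holding 1000 or more CPM of the endothelial markers, 97 and 132 cells were left. There the collagen total was -0.47 and the fibrillar class -0.65 on the log2 scale, Col3a1 was -0.66, Col15a1 -1.88, Col14a1 -1.23 and Col23a1 1.22. Col5a3 and Col28a1 were then under 2-fold. The part of the myofibroblast and adventitial markers in the result was not tested. When the 64 adventitial fibroblasts were left in the same cluster, only Col23a1 of the 5 genes was still past 2-fold, and the collagen total was -0.44 on the log2 scale.

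Genes that make, process and bind collagen stood on both sides of 0 in alveolar fibroblasts. Of 21 modifying enzymes and chaperones 16 were measured, with a median log2 ratio of -0.08, 2 past 2-fold higher and 0 lower. Those were Tmem38b, an endoplasmic reticulum potassium channel whose loss causes brittle bones, from 48.5 to 108 CPM, and P3h4, a cofactor of lysyl hydroxylation, from 11.7 to 24.9. The lowest were P3h3 at -0.72 and P4ha1, a prolyl hydroxylase, at -0.58. Of 14 processing and crosslinking genes 10 were measured, median -0.02, and Loxl2, a lysyl oxidase, was past 2-fold lower (45.4 to 18.4). Adamts2, which removes the amino-terminal propeptide, followed at -0.56, and Pxdn, which crosslinks type IV collagen, was highest at 0.77 with Loxl3 at 0.23.

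Of 12 collagen receptors 6 were measured in these cells, with a median of 0.36. Itga1, the integrin chain that binds type IV collagen, was past 2-fold higher (79.8 to 206 CPM), Ddr1 was at 0.52, and Ddr2, the receptor kinase for fibrillar collagen, was lowest at -0.52, followed by Mrc2 at 0.06. Of 20 basement membrane partners 15 were measured: Lama5 (1.61) and Fras1 (1.19) were past 2-fold higher, Lama3 (-1.69) was past 2-fold lower, and Sparc, a collagen-binding protein, was at -0.83. Of 14 proteoglycans and fibril partners 9 were measured, median -0.28. Dcn, the fibril-coating proteoglycan decorin, went from 314 to 92.5 (-1.76), Dpt was at -0.70, Mfap4 at 0.60 and Fn1, fibronectin, at 0.69. Dcn and Dpt were also among the adventitial markers, and Mfap4 among the alveolar fibroblast markers, from which the cells were named. The part of the endothelial RNA above in the Itga1 value was not tested.

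In AT2 cells (1998 and 1377) collagen RNA as a whole barely differed, 0.207% and 0.196% of UMIs, but Col4a3 and Col4a4 were lower in Cre_Pos. Col4a3 was 269, 271, 254 and 257 CPM in the Cre_Neg sublibraries and 183, 165, 189 and 178 in Cre_Pos, with no overlap (log2 ratio -0.57, -0.63 to -0.51). Col4a4 was 228, 212, 215 and 222 against 167, 149, 170 and 188, with no overlap (log2 ratio -0.39, -0.45 to -0.33). The ubiquitous chains did not share this: Col4a1 went from 432 to 453 and Col4a2 from 610 to 613, both near their free RNA levels. Within the 3 larger AT2 clusters Col4a3 was at -0.64, -0.68 and -0.45 and Col4a4 at -0.42, -0.65 and -0.18. In AT1 cells the log2 ratios of Col4a3 and Col4a4 were 0.11 (-0.01 to 0.23) and 0.08 (-0.05 to 0.21).

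Past 2-fold in AT2 cells were 2 of 16 collagens, where 0.919% of all genes were. Col4a6 was 13, 10.9, 8.17 and 9.78 CPM in Cre_Neg and 18.1, 19.6, 36.5 and 12.6 in Cre_Pos, below free RNA in every sublibrary of Cre_Neg. Its log2 ratio was 1.05 (0.82 to 1.28) and fell under 1 without the third sublibrary and without its top cell (0.96). By sex transcripts Col4a6 went from 11.5 in Cre_Neg to 17.6 in Cre_Pos among Xist cells (0.61, 0.35 to 0.88) and from 6.54 to 49.7 among Y cells (2.93, 2.33 to 3.56). Those values rest on 30 and 104 UMIs for the Y cells, and the Cre_Pos Y cells gave 26.9, 73, 79.7 and 0 by sublibrary. Col6a3 rested on 15 and 45 UMIs, of which 21 came from 1 cell, and was 0.92 without that cell. Of the lists of other collagen genes, Pxdn (1.29 to 2.84) and Fn1 (0.872 to 3.67) were past 2-fold in AT2 cells, both at levels near 1 CPM.

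AT2 cells also differed by sex chromosome transcripts. Y-only cells were 17.7% of the cells with one kind of transcript in Cre_Neg and 6.92% in Cre_Pos over all types, and sex and animal cannot be told apart in pools. In Cre_Neg, Col4a3 was 300 CPM in the 1421 AT2 cells with Xist only and 123 in the 372 cells with Y-linked UMIs only. In Cre_Pos it was 187 in 1119 cells and 126 in 142 cells. Col4a4 was 243 and 123 in Cre_Neg and 174 and 112 in Cre_Pos, and Col23a1 was 211 and 48.6 against 160 and 71.7. For these 3 genes Xist cells were above Y cells in each of the 4 sublibraries of both pools, as the plot of AT2 cells by sex transcripts shows. Col4a1 gave 439 and 408 in Cre_Neg and 449 and 494 in Cre_Pos. Between pools, Col4a3 was -0.68 (-0.75 to -0.62) among Xist cells and 0.04 (-0.18 to 0.25) among Y cells, and Col4a4 was -0.48 (-0.55 to -0.41) and -0.14 (-0.36 to 0.08).

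**Figure D5:**
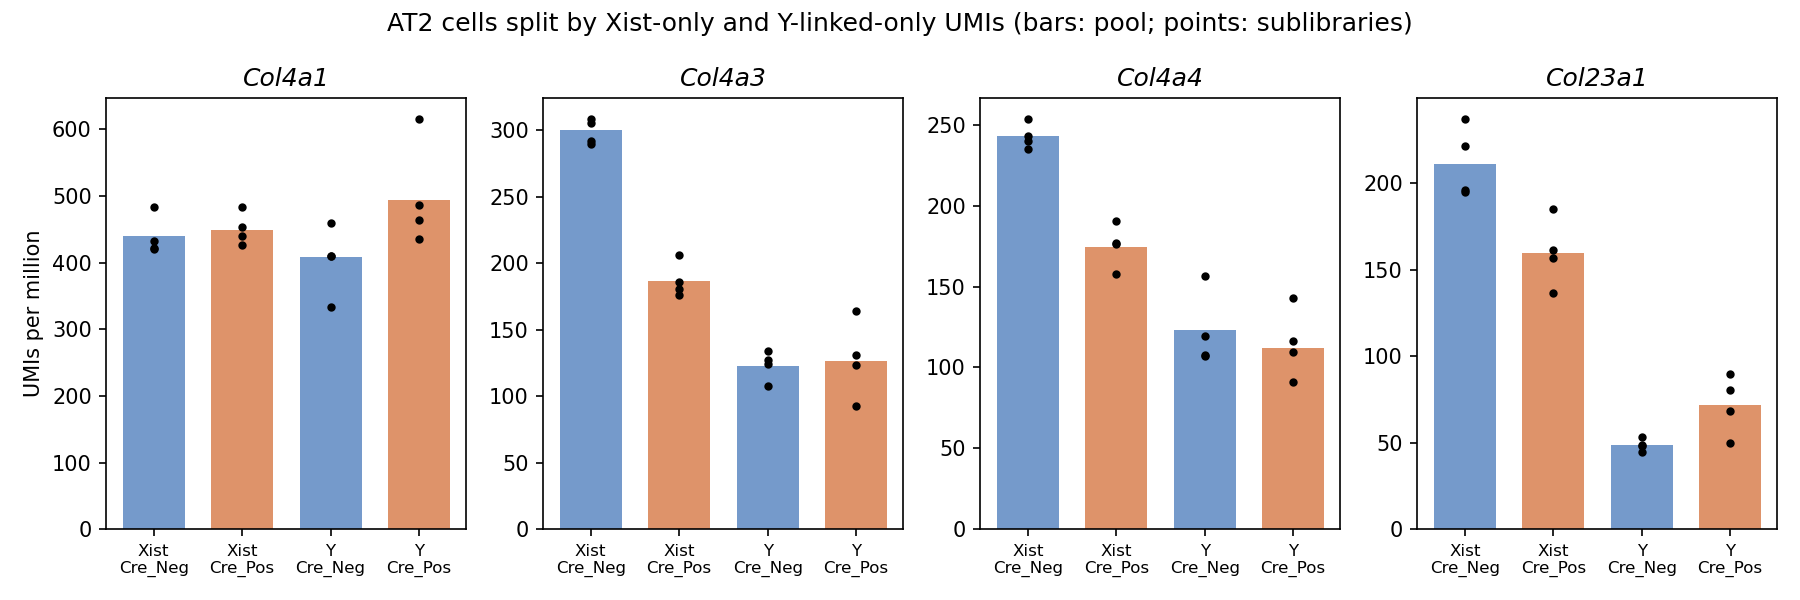
CPM of collagens in AT2 cells with Xist only or Y-linked UMIs only, by pool (bars) and sublibrary (points). Xist cells of Cre_Neg stand highest for Col4a3 (300) and Col23a1 (211), and the Y cells of both pools stand lower for these genes.

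Cluster 9 (176 and 239 cells) differed more between pools. Past 2-fold were 4 of 13 collagens, all higher in Cre_Pos, where 5.64% of all genes were past 2-fold and 3.63% higher. Col6a3 was 4.35, 7.33, 34.7 and 17 CPM in Cre_Neg and 89.8, 178, 111 and 68.3 in Cre_Pos (log2 ratio 2.91), and Col6a1 was 2.17, 9.78, 11.6 and 5.10 against 17.6, 33.1, 14.7 and 39.3 (1.80). Col4a1 was 124, 91.7, 84.8 and 74.8 against 170, 225, 229 and 221 (1.19), and Col4a2 was 154, 139, 135 and 133 against 255, 312, 327 and 264 (1.05). None of the 4 overlapped between pools, for which no share over all genes was counted. Col4a1 and Col4a2 lay below their free RNA levels (457 to 542 and 527 to 603) in every sublibrary of both pools, and Col6a1 lay above its free RNA level (30.8 to 33.0) in 2 Cre_Pos sublibraries. These levels do not show how much of the RNA counted in the cells was free RNA.

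Col23a1, which had its highest level in cluster 9, was lower in Cre_Pos there: 1473, 1401, 1320 and 1537 CPM in Cre_Neg and 1017, 996, 688 and 869 in Cre_Pos (log2 ratio -0.67, -0.74 to -0.60). Col4a6 did not differ beyond its sublibraries, 243, 297, 393 and 335 against 417, 349, 323 and 294. The makeup of the cluster moved as well: the 13 AT2 markers summed to 8394 in Cre_Neg and 12938 in Cre_Pos, the 12 secretory markers to 26391 and 14733, and the 10 pan-endothelium markers to 42.8 and 112. The part of this in the collagen differences was not tested. Among basement membrane partners, the laminin chain Lamb3 (33.1 to 82.5 CPM), Hspg2, perlecan (16.4 to 55.7), and Sparc (71.7 to 158) were past 2-fold higher too, and Frem2 (38.2 to 18.9) lower. Tnxb, tenascin X, went from 2.10 to 35.2 and Tll1, a procollagen protease, from 41.1 to 19.4.

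Collagen RNA of the 2 capillary types was close between pools. In general capillary cells (2020 and 4107), Col4a1 was 1125, 1093, 1113 and 1065 CPM in Cre_Neg and 1011, 1008, 1033 and 1030 in Cre_Pos, each lower, with a log2 ratio of -0.11 (-0.14 to -0.08), and Col4a2 was at -0.08 (-0.11 to -0.05). Of 15 measured collagens only Col23a1 was past 2-fold, at 0.918 and 2.75, where 0.969% of all genes were. Its sublibraries gave 0.388, 0.888, 0 and 2.39 against 2.91, 4.59, 1.98 and 1.01, all far below free RNA. Adamts3 (1.14) and Lamb1 (1.24) were past 2-fold at under 2 CPM. In aerocytes 0 of 6 collagens were past 2-fold, beside 1.08% of all genes, and Col4a1 and Col4a2 were at 0.00 (-0.04 to 0.05) and 0.05 (0.00 to 0.10).

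In the rarer epithelial types few collagens were past 2-fold. In AT1 cells 0 of 8 were past 2-fold, beside 3.21% of genes, and in neuroendocrine cells 0 of 8, beside 2.27%. In neuroendocrine cells Col11a1 was at -0.33 (-0.52 to -0.13) and Col6a5 at 0.59 (0.11 to 1.08). In ciliated cells 1 of 14 was, Col6a2, with 80 UMIs in Cre_Neg and 4 in Cre_Pos, beside 4.26%. Its sublibraries gave 3.62, 3.71, 3.76 and 5.37 CPM against 1.57, 0, 2.85 and 2.70, below free RNA throughout. Smaller differences were present: counting intervals lay below 0 for 4 of the 8 neuroendocrine collagens and above 0 for 1. The neuroendocrine median log2 ratio was -0.33, beside -0.002 over all genes. The counts below and above 0 were 2 and 1 in AT1 cells and 0 and 4 in ciliated cells. The share of all genes with such intervals was not counted.

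The rarer mesenchymal types gave calls that single cells or sublibraries carried. In mesothelium (58 and 30 cells) 5 of 24 collagens were past 2-fold, beside 7.54% of genes. Col4a2 was 166, 70.9, 109 and 80.5 CPM in Cre_Neg and 234, 276, 94 and 412 in Cre_Pos (1.45), and Col4a1 was 170, 60.3, 49.7 and 49.2 against 171, 164, 78.4 and 242 (1.02). Col6a5 was lower, 177, 280, 19.9 and 273 against 189, 74.7, 31.3 and 0 (-1.69), as were Col18a1, 174, 181, 219 and 273 against 81.0, 97.1, 298 and 44 (-1.05), and Col15a1, 21.7, 124, 79.5 and 300 against 36.0, 29.9, 0 and 0 (-3.01). Without the fourth sublibrary 1 of the 5 was still past 2-fold, Col15a1, and without the first the count was 8. All 5 overlapped between pools, and 51.6% of the Col15a1 UMIs came from 1 Cre_Neg cell, without which its log2 ratio was -1.89.

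In pericytes (20 and 81 cells) 3 of 16 collagens were past 2-fold, all lower, beside 13.3% of genes, 4.14% lower. Col3a1 was 2591, 2197, 68.6 and 1685 CPM in Cre_Neg and 671, 606, 904 and 322 in Cre_Pos (-1.60). Col6a3 was 293, 802, 0 and 90.3 against 165, 265, 140 and 79.3 (-1.21), and Col12a1 was 73.3, 481, 0 and 0 against 27.5, 50.8, 25.5 and 17.6 (-2.63). Without the top cell of each gene Col3a1 was still past 2-fold (-1.20), while Col6a3 was -0.11 and Col12a1 had too few UMIs (-1.71). With equal weight per cell Col12a1 alone was past 2-fold (-1.81), beside -0.93 for Col3a1 and -0.70 for Col6a3. In the third sublibrary the direction was the reverse for all 3, and for Col12a1 in the fourth as well (0 against 17.6). Pan-endothelium markers there summed to 3163 in Cre_Neg and 5693 in Cre_Pos, myofibroblast markers to 4443 and 1602, and AT2 markers to 133 and 914. Without the cells rich in endothelial RNA (17 and 48 left) Col3a1 was -1.11, Col6a3 -0.81 and Col12a1 -2.25. Past 2-fold lower among the other collagen-related genes were P3h2 (-1.05), Adamts2 (-1.14), and the fibril partners Ogn (-1.20) and Aspn (-1.33), and Itga2 was higher (1.65). Aspn was also one of the myofibroblast markers.

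Adventitial fibroblasts, the type with the most collagen RNA, were close between pools: 2.01% of Cre_Neg UMIs against 2.07% of Cre_Pos UMIs, with 0.04 (0.00 to 0.08) as log2 ratio. There 3 of 22 collagens were past 2-fold, beside 5.22% of genes. Col8a1 was 666, 0, 0 and 0 CPM against 0, 0, 18.8 and 0 (-4.90), with 77.3% of its UMIs in 1 cell. Col12a1 was 187, 19.3, 74.1 and 26.5 against 56.2, 0, 56.4 and 0 (-1.52; -0.58 without 1 cell), and Col23a1 was 74.7, 19.3, 47.7 and 0 against 11.2, 396, 12.5 and 101 (1.40; -0.01 without 1 cell). The 10 lymphatic markers summed to 641 and 2011 in these cells.

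In lymphatic endothelium (28 and 42 cells) 7 of 13 collagens were past 2-fold, beside 9.12% of genes, and single cells carried much of their UMIs. In the third Cre_Pos sublibrary Col1a1 was at 1131 CPM, Col1a2 at 970, Col5a1 at 1161 and Col6a3 at 1951, while the other Cre_Pos sublibraries lay at or below 114. The Cre_Neg sublibraries of these 4 genes ran from 0 to 168. A single cell held 90.1% of the Col1a1 UMIs, and the top cell held 75.6% for Col1a2, 78.9% for Col5a1 and 73.4% for Col6a3. The overall log2 ratios were 5.90, 4.86, 1.97 and 4.01, and without the top cell of each gene 2.55, 2.84, -1.10 and 2.06. Of these 4 genes only Col6a3 then still counted as past 2-fold, because Col1a1, Col1a2 and Col5a1 had under 50 UMIs. Col8a1 was 256, 71.6, 0 and 0 against 139, 278, 80.0 and 528 (2.16), Col12a1 was 0, 358, 0 and 0 against 24.5, 0, 200 and 0 (-1.39), and Col18a1 was 0, 143, 33.5 and 236 against 114, 84.7, 30.01 and 18.2 (-1.01).

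Calls in the unnamed clusters were few. In cluster 21, led by Ndnf, Ano1 and Itgb6 (90 and 102 cells), Col6a2 was 11, 3.39, 38.5 and 14.1 CPM against 35.0, 42.2, 61.1 and 15.1 (1.14), and Col18a1 was 5.52, 23.7, 26.6 and 0 against 32.3, 32.6, 16.1 and 63.4 (1.27), beside 4.61% of genes. In cluster 23, led by Cdc20b, Crocc2 and Deup1, Col6a5 (3.29) came from 1 cell for 92.3% of its UMIs: the sublibraries gave 26.9, 5.18, 0 and 0 against 0, 3.50, 243 and 0, beside 6.39% of genes. In cluster 24, led by Fn1, Pid1 and Dock2, Col14a1 was 35.7, 13.5, 20.2 and 66.3 against 174, 0, 0 and 504 (2.78), beside 8.07%.

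In cluster 25, led by Dock2, Ptprc and Arhgap15, Col4a1 was 0, 5.62, 139 and 294 CPM in Cre_Neg and 142, 143, 322 and 358 in Cre_Pos (1.38), and Col4a2 was 0, 0, 152 and 93.0 against 134, 75.9, 345 and 432 (1.87), beside 16.4% of genes. The 10 pan-endothelium markers summed to 1081 and 3462 there. Without cells rich in those markers the log2 ratios were -0.28 for Col4a1 and -0.50 for Col4a2.

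In 7 further types 0 collagens were past 2-fold. Artery endothelium had 3 collagens with at least 50 UMIs (5.02% of all genes past 2-fold), secretory cells 3 (3.74%) and vein endothelium 5 (2.0%). B cells (4.42%), T cells (7.11%), monocytes (2.35%) and the unnamed cluster 29 (3.72%) had 0 collagens with that many UMIs.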

How the data were processed

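The authors deposited whole-number counts (UMIs per gene and cell) of 4 sublibraries as 1 matrix with a gene table and a cell table. The submitters' processing notes name GRCm39, the gene table names mm10, and the aligner and counter were not given in the sources used here. Cells had at least 500 genes, at most 15% mitochondrial UMIs (38 removed) and no doublet call by Scrublet per sublibrary in scanpy 1.11.5 (185 calls, 1.12%); a cluster of 81 cells, 75 of them called, was also dropped. Leiden clusters (resolution 1, leidenalg 0.10.2, 3000 variable genes without collagens) were named from fixed markers. The naming thresholds and the separation of adventitial and lymphatic cells at resolution 2 were set after the clusters were seen.

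From the counts, UMIs were summed per type and pool and given as CPM (per 1000000 UMIs) with exact Poisson 95% intervals. Ratios have exact conditional binomial intervals and shares exact binomial ones (scipy 1.17.1). A pool with 0 UMIs was set to 3 counts for bounds. On simulated data, 96.0% of 200 genes changed 4-fold were past 2-fold in alveolar fibroblasts (6914 genes) and 98.5% in AT2 cells (12949 genes). Of the unchanged genes, 0.313% and 0.0471% were past 2-fold. The simulated counts held Poisson counting error only, without spread between cells or animals. They check the computation and do not give the error rate in the real cells. Values by sublibrary are given for the 3 genes of highest level per class and for genes past 2-fold; of the lists of other genes, the 2 highest, the 2 lowest and those past 2-fold are named in alveolar fibroblasts, and those past 2-fold in AT2 cells, general capillary cells, pericytes and cluster 9, except 1 gene that is not reported here. The members and lists were chosen with earlier results of these data known. Alternatives are listed in the closing section.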

Additional observations from a re-analysis of the deposited data

Results flagged for a closer look

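Among 28 groups of 4 sublibrary ratios, 3 had a sublibrary far from the others; chance alone flags about 1 in 20 such groups. Col23a1 in alveolar fibroblasts was at 1.03 in the third sublibrary, with the other 3 between 1.27 and 1.31, still higher in Cre_Pos. Col5a1 in lymphatic endothelium was at 2.79 in the third sublibrary, where a single cell held most of its UMIs, and negative in the others. Col3a1 in pericytes was at 3.72 in the third sublibrary and between -2.39 and -1.86 in the others.

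Of 50 pairs of types screened, each for 1 collagen with the same sign in every sublibrary of a type, 10 ran in opposite directions. In those 10 the collagen was higher in Cre_Pos in every sublibrary with a value in 1 type and lower in every such sublibrary in the other. The 2 ratios differed by at least 1 on the log2 scale. The share of such pairs over all genes was not counted. None of these differences was tested. Col23a1 was higher in alveolar fibroblasts and lower in AT2 cells (difference -1.43, AT2 minus alveolar fibroblast), in secretory cells (1.73, alveolar fibroblast minus secretory) and in cluster 9 (1.82, alveolar fibroblast minus cluster 9). Col4a1 was lower in alveolar fibroblasts and higher in cluster 21 (-1.003) and cluster 9 (-1.65), and lower in general capillary cells than in cluster 9 by the same measure (-1.30). Col4a2 gave -1.47 for alveolar fibroblasts minus cluster 9 and -1.13 for general capillary cells minus cluster 9. Col6a3 gave -3.27 for alveolar fibroblasts minus cluster 9 and -4.36 for alveolar fibroblasts minus lymphatic endothelium, the last with 73.4% of the lymphatic UMIs in 1 cell.

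Within AT2 cells Col23a1 was lower in Cre_Pos among Xist cells and higher among Y cells in all 4 sublibraries, a difference of -0.96 (Xist minus Y) that was not tested. The pool ratios were -0.40 (-0.48 to -0.33) among Xist cells and 0.56 (0.25 to 0.87) among Y cells. Each pool holds few mice of each sex, so sex and animal cannot be told apart.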

How the results depend on the processing

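No paired analysis was possible because each genotype is 1 pool and the sublibraries are aliquots of the same cells rather than animals; log2 ratios within each sublibrary are given as values. Settings tried were no doublet or mitochondrial filter, at least 1000 genes per cell, equal weight per cell, Leiden resolution 2, each sex transcript alone, other UMI minimums and leaving out each sublibrary. Chosen after seeing the data were leaving out cells with endothelial RNA, leaving the clusters unsplit, and leaving out the top cell of each gene. The collagen total of alveolar fibroblasts stayed between -0.62 and -0.44 and their fibrillar class between -0.87 and -0.57 under every alternative run. The cause of each change below was not tested.

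The count past 2-fold in alveolar fibroblasts was 5 and became 3 with equal weight per cell, 3 at Leiden resolution 2, 3 without cells with endothelial RNA and 2 with unsplit clusters, and 4 to 6 without 1 sublibrary. In AT2 cells the 2 became 5 at a minimum of 20 UMIs, 1 at 100 UMIs, 0 without the top cell, 0 in Xist cells and 1 to 2 without 1 sublibrary. In mesothelium the 5 became 1 to 8 without 1 sublibrary. Without the top cell of each gene the 3 of pericytes became 1, the 3 of adventitial fibroblasts 0 and the 7 of lymphatic endothelium 2. Pericytes without any 1 sublibrary, adventitial fibroblasts without the first or the third and lymphatic endothelium without the third had under 20 cells in a pool and gave no value. Over all types the 37 became 66 at 20 UMIs, 2 in Y cells (where few types had enough cells), and 25 to 33 without 1 sublibrary. The AT2 collagen total was -0.08 and became -0.043 at resolution 2, -0.15 in Xist cells and 0.25 in Y cells; that of general capillary cells was -0.09 and became 0.014 in Y cells. Of 38 genes, 24 kept their highest type with collagens among the variable genes, and 35 to 37 without 1 sublibrary. Col23a1 in adventitial fibroblasts ran from -0.40 to 1.23 without 1 sublibrary (reversed without the second) and was -0.0097 without the top cell. In lymphatic endothelium Col5a1 reversed to -0.21 with equal weight and -1.10 without the top cell, Col12a1 ran from -1.39 to 1.57 without 1 sublibrary (reversed without the second) and was 3.46 without the top cell, and Col18a1 ran from -1.86 to 0.0057 (reversed without the fourth). Col6a5 in cluster 23 reversed to -0.56 with equal weight and -2.24 without the top cell, and ran from -2.28 (without the third) to 5.02 without 1 sublibrary. In cluster 25 Col4a1 and Col4a2 reversed to -0.28 and -0.50 without cells with endothelial RNA. Of 96 alternatives for the main totals and counts, 78 stayed near the main value and 18 moved. Of 1578 alternatives for single genes, classes and other counts, 1474 stayed near it, 92 moved and 12 reversed. For most ratios, near meant within 1 standard deviation of the sublibrary ratios, and for counts within a fixed factor. A ratio could stay near and still leave the 2-fold range, as Col18a1 in lymphatic endothelium did without its top cell (-1.01 to -0.13). A change of sign counted as reversed only for ratios past 2-fold. Depth limits the rarer types: ratios resting on under 50 UMIs were not counted.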

Other observations

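Other collagens of AT2 cells also stood at different levels in Xist and Y cells. Col6a1 was 94.3 CPM in Xist cells and 66.2 in Y cells of Cre_Neg, and 98.3 and 64.5 in Cre_Pos. Col6a2 was 41.2 and 30.3 in Cre_Neg and 40.8 and 22.5 in Cre_Pos. The X-linked gene Col4a5 was 134 and 126 in Cre_Neg but 130 and 206 in Cre_Pos, where the Y cells of the 4 sublibraries gave 195, 228, 247 and 129. Col12a1 was 47.9 and 40.1 in Cre_Neg but 43.9 and 83.2 in Cre_Pos, where the Y cells gave 76.7, 63.9, 74.2 and 133. These Y cells of Cre_Pos numbered 142.

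Of 80 genes that make, process or bind collagen and had at least 50 UMIs, 24 were highest in adventitial fibroblasts, 11 in alveolar fibroblasts, 9 in AT1 cells, 8 in pericytes and 6 in mesothelium; the others were spread over 19 types, 2 genes at most in each. Lama3, a laminin chain of the alveolar epithelium, and Hspg2 were highest in AT1 cells, beside Col4a3 and Col4a4. Dcn, Tnxb, Adamts2 and Serpinh1, the collagen chaperone, were highest in adventitial fibroblasts, beside Col1a1 and Col3a1. Dcn was itself among the markers from which those fibroblasts were named. Bmp1, a procollagen protease, was highest in AT2 cells at 935 CPM.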
